A study of Mus musculus with 15 samples.

Results

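Cholesterol synthesis, uptake and oxysterol genes were examined in whole-cornea RNA of the mouse. The set holds 32 named genes of the 55357 genes counted: 19 of synthesis, 5 regulators, 4 of uptake and intracellular transport, 2 of efflux and 2 of oxysterol metabolism. All 32 were found in the count files by gene identifier, and all 32 passed the filter on low counts that 15770 genes passed. The libraries were made from corneas of OPA1+/+ mice aged 3 months (n = 4) or 6 months (n = 3) and of OPA1+/- mice aged 3 months (n = 4) or 6 months (n = 4). Opa1 encodes an inner-membrane GTPase of mitochondrial fusion, and OPA1+/- animals carry 1 affected copy. The mutant allele, the strain, the sex and the number of animals behind a library are not given in the sources used here, so p-values measure the spread between these libraries, which may in part be technical.

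Cells make cholesterol from acetyl-CoA through mevalonate, isoprenoids, squalene and lanosterol. When sterol in the endoplasmic reticulum is low, SCAP escorts the SREBP proteins (products of Srebf1 and Srebf2) to the Golgi, where they are cleaved and released to switch on synthesis and uptake genes, and INSIG proteins hold that escort back when sterol is plentiful. When sterol is high, oxysterols activate the LXR receptors, which switch on the efflux pumps encoded by Abca1 and Abcg1 and the ubiquitin ligase encoded by Mylip, which directs lipoprotein receptors to degradation. The corneal epithelium renews throughout life, and dividing cells need cholesterol for new membrane.

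Promoter sequence of the synthesis genes is shown first. These genes moved together between libraries, as described further on, and whether their promoter sequence has a part in that was not tested. The stretch of 250 bases before the annotated start was taken from RefSeq on GRCm38.p6 for 25 of the 32 genes, 16 of them synthesis genes. It is shown for 4 synthesis genes: Hmgcs1, the synthase that opens the mevalonate route, and 3 of the genes closest to the shared pattern. Capitals mark CCAAT on either strand (ATTGG when read from the other strand) and TCACNCCAC, a sterol response element-like string. The windows are chr13:119690101-119690350 on the plus strand for Hmgcs1, chr13:8885356-8885605 on the plus strand for Idi1, chr10:76531355-76531604 on the plus strand for Lss and chr5:4104698-4104947 on the minus strand for Cyp51, each written 5′ to 3′ in the direction of transcription.
Hmgcs1: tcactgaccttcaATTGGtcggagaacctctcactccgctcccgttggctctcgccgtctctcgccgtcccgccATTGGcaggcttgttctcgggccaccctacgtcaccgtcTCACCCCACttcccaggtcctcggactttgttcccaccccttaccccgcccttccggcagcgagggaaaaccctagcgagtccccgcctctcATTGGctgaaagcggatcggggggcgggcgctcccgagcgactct
Idi1: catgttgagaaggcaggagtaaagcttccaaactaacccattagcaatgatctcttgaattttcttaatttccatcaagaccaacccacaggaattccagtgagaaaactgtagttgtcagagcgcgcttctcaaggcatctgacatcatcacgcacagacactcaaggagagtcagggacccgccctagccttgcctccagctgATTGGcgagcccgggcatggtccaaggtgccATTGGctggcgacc
Lss: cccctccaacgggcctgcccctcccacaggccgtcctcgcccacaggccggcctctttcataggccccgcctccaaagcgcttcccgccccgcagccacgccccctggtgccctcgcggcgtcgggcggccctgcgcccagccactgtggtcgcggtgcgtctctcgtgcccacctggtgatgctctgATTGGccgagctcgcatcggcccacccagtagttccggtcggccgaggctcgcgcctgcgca
Cyp51: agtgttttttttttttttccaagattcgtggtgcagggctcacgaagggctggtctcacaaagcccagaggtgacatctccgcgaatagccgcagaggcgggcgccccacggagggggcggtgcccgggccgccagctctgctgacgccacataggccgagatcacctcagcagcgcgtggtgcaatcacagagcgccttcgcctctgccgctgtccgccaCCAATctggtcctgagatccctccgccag

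CCAAT was found in 15 of the 16 synthesis genes with a window (93.8%), all but Acat2, and in 7 of 9 other members (77.8%). It was found in 37.5% of the 27025 genes of the table, which are not limited to the genes tested here. Hmgcs1 held CCAAT 3 times, Idi1 2 times, and Lss and Cyp51 1 time each. TCACNCCAC was found in Hmgcs1 alone among the 16 synthesis genes, and in 1.22% of all genes. Other forms of the sterol response element were not searched, so a window without this string may still hold one. The synthesis genes Fdps, Fdft1 and Sqle had no window. The E-box CACGTG was found in Dhcr7, Hsd17b7 and Sc5d among synthesis genes (18.8%) and in Abca1, Insig1 and Scap among the 9 others (33.3%), against 6.86% of all genes. All 3 motifs were searched on both strands, each on its own and with overlapping matches counted, and a match is a string of letters and not a measured binding site.

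Opa1 itself was at 65.2, 66.5, 69.1 and 70.3 CPM (counts scaled to a library of 1e+06) in OPA1+/+ corneas at 3 months and at 45.5, 50.1, 50.5 and 57.8 CPM in OPA1+/- corneas. At 6 months it was at 66.9, 67.5 and 73.4 CPM against 47.0, 47.1, 48.5 and 49.1 CPM. The groups did not overlap at either age, and Opa1 fell by 0.41 ± 0.06 and 0.53 ± 0.06 on the log2 scale (standard error; edgeR adjusted p = 0.0193 and 0.000623). Library totals were 11673240 to 18194946 counts, so the detection limit of 3 counts stood for 0.165 to 0.257 CPM, and every member was above it in every library. Krt12, the keratin of corneal epithelium, was at 26106 to 32909 CPM. A pair of libraries stood apart by transcripts of the retina: the summed level of 8 retina markers was 153 CPM in OPA1+/- at 3 months, replicate 4, and 146 CPM in OPA1+/+ at 6 months, replicate 1, and no more than 23.5 CPM elsewhere.

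The synthesis genes differed widely in level. Per kilobase of exon, Hmgcs1 stood highest of the 32 at 116 CPM per kb. Among the synthesis genes it was followed by Sqle, the squalene epoxidase, at 50.8, Sc5d, a late sterol desaturase, at 45.4, and Cyp51, the lanosterol demethylase, at 34.9 CPM per kb. The isoprenoid-stage genes were lower, with Fdps, the farnesyl diphosphate synthase, at 6.31, Ggps1, which branches to geranylgeranyl diphosphate, at 5.43, and Idi1, the isopentenyl diphosphate isomerase, at 3.54 CPM per kb. The length used is that of all annotated exons of a gene, so ranks between genes are rough. Fdps also overlaps 2 genes on its own strand, which makes its level uncertain. The regulators Insig1 (67.8 CPM per kb) and Srebf2 (66.1 CPM per kb) came next after Hmgcs1 among all 32, ahead of Srebf1 at 31.9 CPM per kb. Abca1 was at 4.08 CPM per kb and Abcg1 at 22.9. Cyp27a1, the mitochondrial sterol hydroxylase, was the lowest at 2.24 CPM per kb.

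The members varied little between libraries. The SD of log2 CPM within a group ran from 0.048 (Npc2, a lysosomal sterol carrier) to 0.321 (Cyp27a1), with a median of 0.116. In 27 of 32 members it was more than 1.5 times the SD that counting alone gives, with a median ratio of 2.29. Ebp, the sterol isomerase, was closest to counting error with a ratio of 1.06, and Hmgcs1 (5.16) and Insig1 (5.13) were furthest from it.

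**Figure D1:**
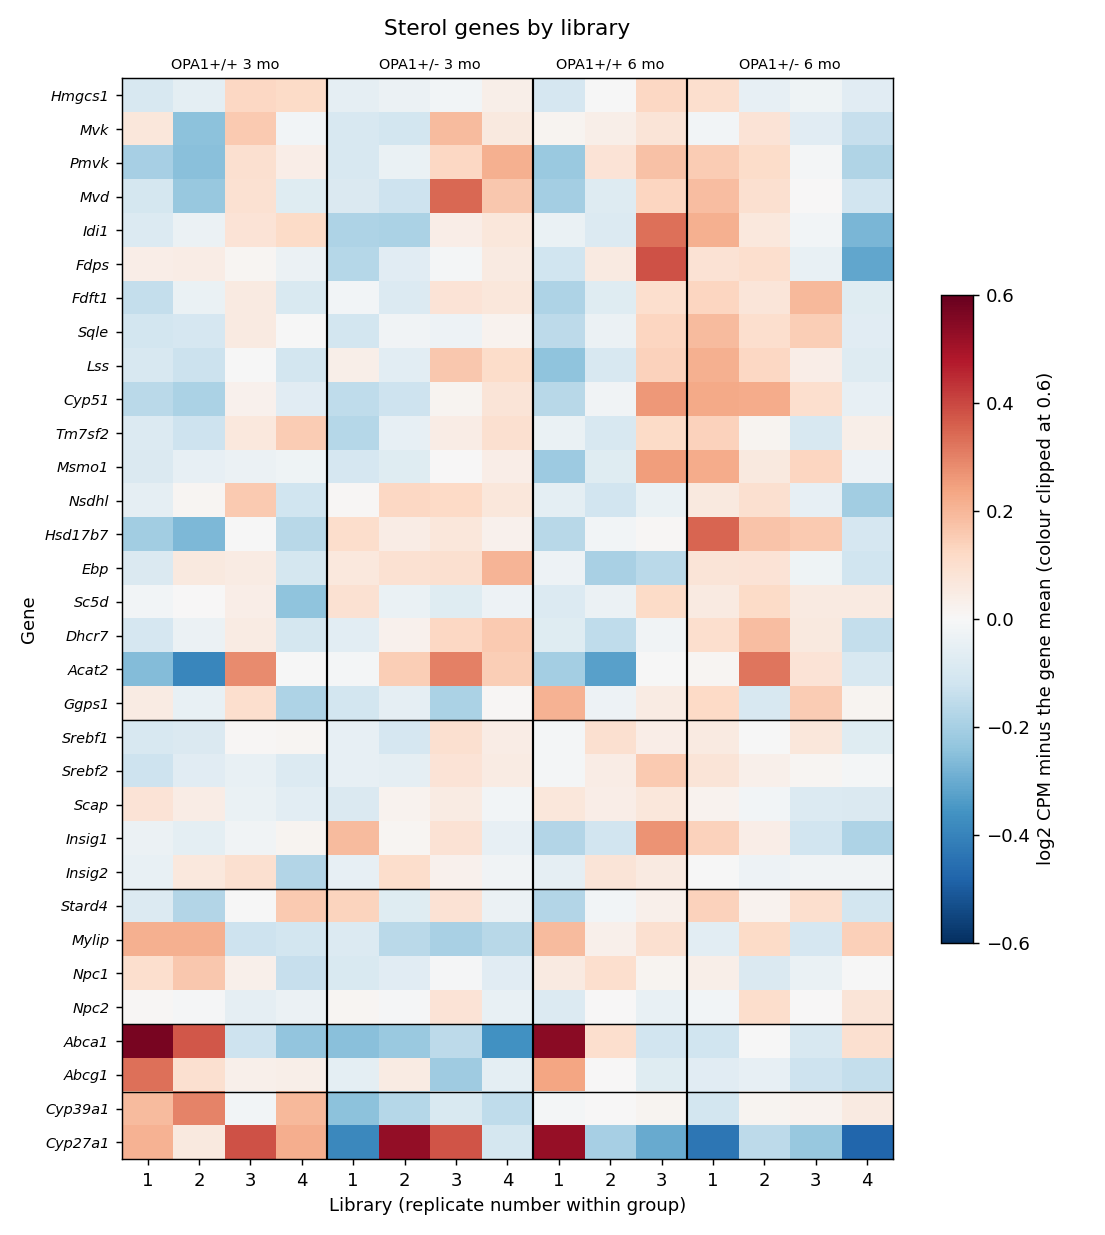
Level of each of the 32 genes (vertical axis, ordered by role, black lines between roles) in each of the 15 libraries (horizontal axis, replicate number within group), as the deviation of log2 CPM from its mean over libraries, with colour clipped at 0.6. The synthesis genes at the top share columns of one colour, for example in OPA1+/- at 6 months, replicate 1. Abca1 is deep red in the 3 libraries where it exceeds 50 CPM, and most synthesis genes are blue there.

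The synthesis genes moved together between libraries of the same group. Over the 15 libraries with group means removed, the 171 pairs of the 19 synthesis genes had a median Pearson r of 0.571, with a range of -0.301 to 0.928, and 157 pairs (91.8%) were above 0. Over all pairs of the 15770 tested genes the median r was 0.0, the quartiles were -0.23 and 0.23, the 95th percentile was 0.53 and 49.9% of pairs were above 0. These correlations are descriptions, since the genes were proposed with the co-movement in view, and all points share the same libraries and the same scaling. The 15 points are 15 libraries of 4 groups. Lss, the lanosterol synthase, and Cyp51 had r = 0.927 (Spearman's rho 0.861), Sqle and Cyp51 r = 0.909 (rho 0.896), and Idi1 and Cyp51 r = 0.906 (rho 0.832). Leaving out the 2 libraries furthest from the median left r at 0.868, 0.848 and 0.906.

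**Figure D2:**
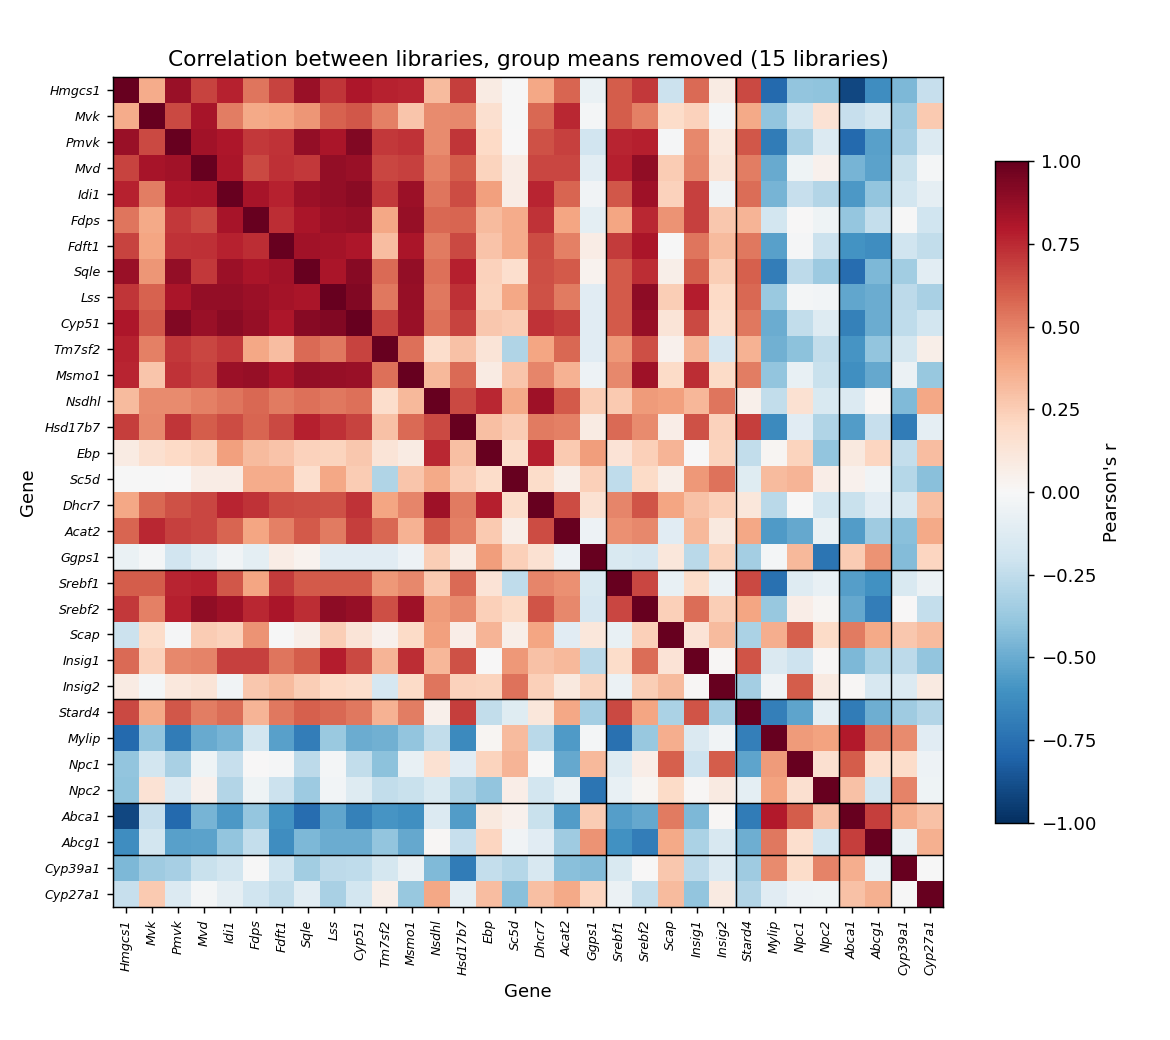
Pearson's r between every pair of the 32 genes over 15 libraries with group means removed (both axes list the genes by role, black lines between roles). The synthesis block is mostly red and palest for Sc5d, Ebp and Ggps1, and Abca1, Abcg1 and Mylip are blue against 49 of the 57 synthesis pairs.

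Cyp51 was closest to the common pattern. It was at 137, 134, 156 and 146 CPM in OPA1+/+ at 3 months and at 138, 141, 155 and 161 CPM in OPA1+/-. At 6 months it was at 136, 151 and 183 CPM in OPA1+/+ and at 179, 179, 164 and 148 CPM in OPA1+/- (all in order of replicate number). High and low libraries stood in every group, and the groups overlapped at both ages. With group means removed, its r with a score of the other synthesis genes (the average deviation of log2 CPM from each gene's mean) was 0.960 (rho 0.986). It was 0.951 without the 2 farthest libraries, and 0.878 with group means kept. Every r of a single gene with the score given below is also with group means removed, unless said otherwise.

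Of the other synthesis genes, 15 had r above 0.6 with the score of the remaining ones, group means removed. With group means kept, r was lower for most, for example 0.695 for Idi1, 0.612 for Hmgcs1 and 0.535 for Fdps. It was higher for Fdft1 (0.834) and Sc5d (0.330). The values that follow are with group means removed. Idi1 had r = 0.903 with the score of the others, Lss 0.902, Sqle 0.900, Pmvk, the phosphomevalonate kinase, 0.875, and Mvd, which decarboxylates mevalonate diphosphate, 0.863. Fdft1, the squalene synthase, had r = 0.818, Fdps 0.796, Dhcr7, which makes cholesterol from its last precursor on one branch, 0.795, and Msmo1, which oxidises methyl groups of sterols, 0.782. Hmgcs1 had r = 0.769, Hsd17b7, a sterol ketoreductase, 0.737, Acat2, the thiolase that joins the first acetyl units, 0.682, Nsdhl, a sterol dehydrogenase, 0.670, Mvk, the mevalonate kinase, 0.637, and Tm7sf2, a sterol reductase, 0.603. 3 genes stood aside: Ebp had r = 0.378, Sc5d 0.204 (0.023 without the 2 farthest libraries) and Ggps1 -0.010. Acat2 has a close copy in the mouse genome, Acat3, and the counting command, per the file headers, has no option for reads that map to several places, so its level is uncertain.

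The score ran from -0.110 in OPA1+/+ at 6 months, replicate 1, to 0.137 in OPA1+/- at 6 months, replicate 1, a 1.19-fold span. In OPA1+/+ at 3 months it was -0.091, -0.109, 0.074 and -0.049, and in OPA1+/- at 3 months -0.059, -0.034, 0.073 and 0.083, by replicate number. At 6 months it was -0.110, -0.066 and 0.113 in OPA1+/+, and 0.137, 0.098, 0.041 and -0.103 in OPA1+/-. Each group held libraries below and above 0, and the group means (-0.044 ± 0.082, 0.016 ± 0.073, -0.021 ± 0.118 and 0.044 ± 0.105, SD) lay closer to each other than the libraries within a group. The score had r = 0.253 with library total. Without the 2 libraries with retina transcripts the median r of the synthesis pairs was 0.611.

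Among the regulators, Srebf2, whose product drives the synthesis genes, had r = 0.842 with the score (rho 0.839, and 0.828 without the 2 farthest libraries). With group means kept, r was 0.695 for Srebf2. Srebf1, whose products act more on fatty acid genes, had r = 0.650. Insig1 had r = 0.620, which was 0.372 without the 2 farthest libraries and so rests in part on them. Stard4, a cytosolic sterol carrier, had r = 0.509, with r = 0.631 to Insig1. Insig2 (0.226) and Scap (0.193) stood aside.

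Abca1, Mylip and Abcg1 ran the other way. Abca1 had r = -0.607 with the synthesis score (rho -0.679, and -0.547 without the 2 farthest libraries), Mylip -0.551 (rho -0.579) and Abcg1 -0.421 (rho -0.446). Of the 57 pairs of a synthesis gene with Abca1, Abcg1 or Mylip, 49 had r below 0, with a median of -0.461. Other genes tied to the LXR receptors were mixed. Among genes that these receptors are known to switch on, Srebf1 had r = 0.650 and Lpcat3, a phospholipid acyltransferase, 0.377. The 12 tested genes of the LXR and storage list ran from -0.598 (Abcg4) to 0.401 (Abca7), with a median of 0.064 and 8 above 0. That list also holds the receptors and storage genes, so the 8 is not a count of genes that LXR receptors switch on. Abca1, Mylip and Abcg1 ran with each other: Abca1 and Mylip had r = 0.796, Abca1 and Abcg1 0.693, and Abcg1 and Mylip 0.524 (0.306 without the 2 farthest libraries).

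**Figure D3:**
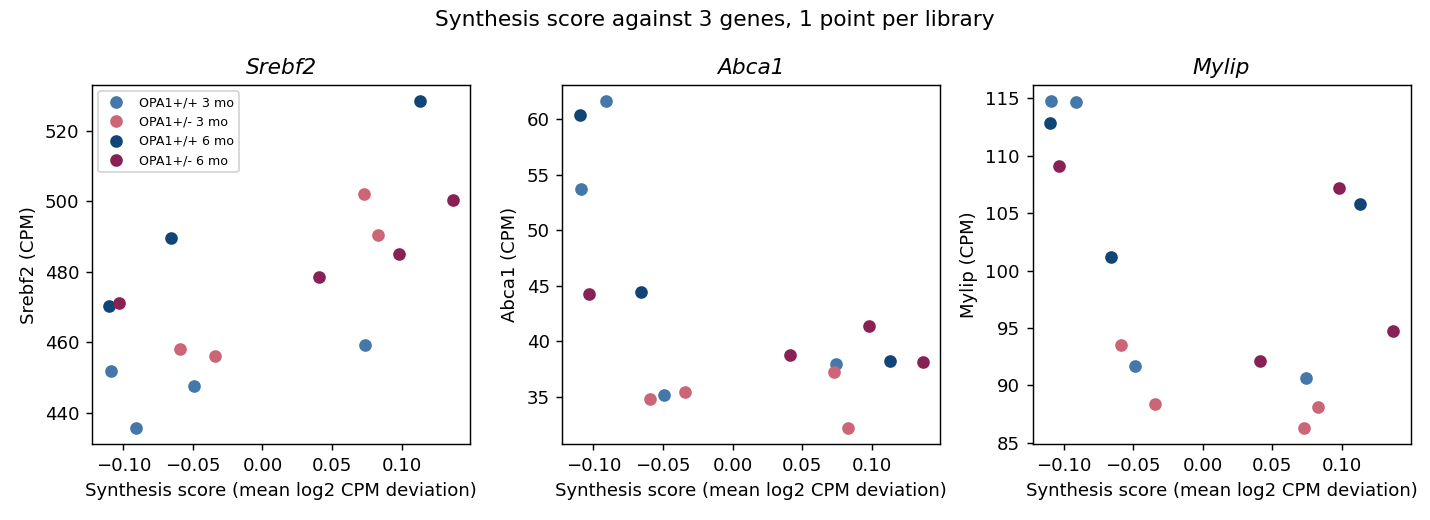
Synthesis score of each library (horizontal axis, mean log2 CPM deviation of the 19 genes) against the CPM of Srebf2, Abca1 and Mylip (vertical axes, not starting at 0), 1 point per library, coloured by group. Group means are kept in these panels, unlike in the r values of the text. Srebf2 climbs with the score, and the 3 libraries with Abca1 above 50 CPM lie at scores of -0.091 or lower.

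Abca1 was at 61.6, 53.7, 38.0 and 35.2 CPM in OPA1+/+ at 3 months and at 34.8, 35.4, 37.2 and 32.2 CPM in OPA1+/-. At 6 months it was at 60.4, 44.5 and 38.2 CPM in OPA1+/+ and at 38.1, 41.4, 38.8 and 44.3 CPM in OPA1+/-. The high values were 2 OPA1+/+ libraries at 3 months and 1 at 6 months, which is the library with retina transcripts, and the other OPA1+/+ libraries lay within 1 CPM of the OPA1+/- range of their age or inside it. Mylip was at 115, 115, 90.6 and 91.7 CPM in OPA1+/+ at 3 months, with the same 2 libraries high, and at 93.5, 88.4, 86.3 and 88.1 CPM in OPA1+/-. Abcg1 was at 209.6, 178, 170.2 and 171 CPM against 159.9, 172, 144 and 159.7 CPM at 3 months, with 1 OPA1+/- library inside the OPA1+/+ range. At 6 months Mylip was at 113, 101 and 106 CPM against 94.7, 107, 92.2 and 109 CPM, and Abcg1 at 196, 167 and 158 CPM against 159, 161, 153 and 151 CPM, and both overlapped.

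Markers of other cell types were summed beside these genes. All 5 tested conjunctival markers had negative genotype values at both ages, with medians of -0.28 and -0.36 on the log2 scale and none past edgeR's threshold, beside the negative values of Abca1, Abcg1 and Mylip given further on. The 8 conjunctival markers ran from 384 to 794 CPM, with 581 to 794 CPM in OPA1+/+ and 397 to 742 CPM in OPA1+/- at 3 months, and 419 to 743 and 384 to 583 CPM at 6 months, and their score had r = 0.507 with Abca1 and -0.293 with the synthesis score. The goblet cell mucins Muc5ac and Muc5b were under 1 CPM in every library. The 6 corneal epithelium markers ran from 60874 to 72975 CPM and their score had r = 0.433 with the synthesis score. Their part in the co-movement and in the genotype values was not tested, and in bulk tissue fewer cells of a type and less RNA per cell cannot be told apart. Of the Schwann cell and myelin markers 4 were tested, with Mbp, a myelin protein, at 77.6 to 136 CPM, and their score had r = 0.447 with the synthesis score. The 7 leukocyte markers ran from 48.1 to 65.1 CPM and their score had r = -0.420 with it. Adipoq, Cidec and Cfd of adipocytes and Awat1 and Elovl3 of sebaceous and meibomian glands were at 0 counts in all 15 libraries, and 6 of 9 gland markers were under 1 CPM.

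Outside the set, the 10 tested genes with the highest r to the score included Hk2, a hexokinase (0.925), Amigo3 (0.918), Sept11, a septin (0.904), Map7d1 (0.903), Rab26os (0.884), Snrnp40, a spliceosome protein (0.878), Scd2, a stearoyl-CoA desaturase (0.877), Myo18a, a myosin (0.873) and Pcyt1b, an enzyme of phosphatidylcholine synthesis (0.871). Ranked among all 15770 genes, with each synthesis gene set against the score of the others, synthesis genes took 4 of the top 10, 7 of the top 50 and 11 of the top 100 places. Since the genes were proposed with the co-movement in view, these places describe the set and are not separate evidence for it. Amigo3 and Rab26os were at 3.98 and 1.30 CPM on average, where counting error is larger. The fatty acid branch also ran with the score: 9 of 12 tested genes were above 0, with a median r of 0.462, Fasn, the fatty acid synthase, at 0.804 and Acly, which supplies cytosolic acetyl-CoA, at 0.719. The medians of the lists of LXR and storage genes (0.064 over 12 genes), isoprenoid-using genes (0.142 over 12), oxysterol enzymes and carriers (-0.044 over 12), SREBP-processing genes (0.026 over 8) and lipoprotein receptors and particles (-0.010 over 7) were nearer to 0.

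Genotype was compared next. None of the 32 members passed edgeR's quasi-likelihood test at an adjusted p of 0.05 at 3 months, where 0.00634% of all tested genes did. At an unadjusted p under 0.05 there were 5 members (Hsd17b7, Abca1, Mylip, Abcg1 and Cyp39a1), 1 of them higher and 4 lower in OPA1+/-, against 9.03% of all genes. Of the 19 synthesis genes 14 had positive values, with a median log2 fold change of 0.05, where the median over all tested genes was 0.003 and 50.9% were positive. The synthesis genes moved together between libraries, so the 14 are not 14 separate observations. DESeq2's Wald test called 1 member, Cyp39a1, where it called 0.273% of all genes, and limma voom called the same 1, where it called 0.0317%. With no filter on low counts edgeR also called it, among 0.142% of 31669 genes.

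Cyp39a1, a hydroxylase that acts on oxysterols on the way to bile acids, had the smallest p at 3 months. It was at 75.4, 81.4, 65.5 and 75.8 CPM in OPA1+/+ and at 55.7, 58.8, 62.1 and 59.5 CPM in OPA1+/-. All 4 OPA1+/- libraries lay below all 4 OPA1+/+ libraries, 1.95% of all tested genes being lower without overlap. The log2 fold change was -0.34 ± 0.06 (edgeR adjusted p = 0.0707), and over 24 alternatives it ran from -0.40 to -0.30 with an adjusted p of 0.000325 to 0.612 and was called in 6. At 6 months Cyp39a1 was at 65.6, 66.4 and 67.0 CPM in OPA1+/+ and at 61.4, 66.9, 67.2 and 68.7 CPM in OPA1+/-, with overlap and a log2 fold change of -0.01 ± 0.06. The difference between the ages was 0.33 ± 0.09 (interaction, edgeR adjusted p = 0.335), so it was not shown that the genotype value differed between ages.

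Hsd17b7 was at 44.1, 42.3, 50.9 and 45.4 CPM in OPA1+/+ at 3 months and at 54.8, 52.6, 53.5 and 52.0 CPM in OPA1+/-. At 6 months it was at 45.4, 50.4 and 51.2 CPM against 64.9, 57.3, 56.8 and 47.6 CPM. The groups were apart at 3 months, where Ebp was the other member higher without overlap (2.66% of all genes were), and overlapped at 6 months through 1 OPA1+/- library. Ebp was at 23.2, 25.7, 25.6 and 22.9 CPM in OPA1+/+ and at 25.8, 26.3, 26.4 and 28.4 CPM in OPA1+/- at 3 months, a margin under 1 CPM. The log2 fold change of Hsd17b7 was 0.22 ± 0.08 at 3 months (adjusted p = 0.407 by edgeR) and 0.21 ± 0.08 at 6 months (adjusted p = 0.356 by edgeR). Abca1, described above, had -0.44 ± 0.18 and -0.23 ± 0.19, and Abcg1 -0.20 ± 0.07 and -0.16 ± 0.08. Mylip had -0.21 ± 0.08 and -0.08 ± 0.08, and none of these values passed the threshold. Single OPA1+/+ libraries carried much of the values of Abca1 and Abcg1. Without OPA1+/+ 3 months replicate 1 the value at 3 months was -0.29 ± 0.16 for Abca1 and -0.13 ± 0.07 for Abcg1. Without OPA1+/+ 6 months replicate 1, the library with retina transcripts, the value at 6 months was -0.03 ± 0.19 for Abca1 and -0.06 ± 0.08 for Abcg1, and without OPA1+/+ 6 months replicate 3 it was -0.37 ± 0.20 for Abca1. Hsd17b7 at 6 months was 0.14 ± 0.08 without OPA1+/- 6 months replicate 1.

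At 6 months no member passed edgeR's test, with 0.323% of all genes called, and 1 member, Hsd17b7, had an unadjusted p under 0.05, against 10.2% of all genes. DESeq2 and limma voom called none of the members, where they called 1.15% and 0.666% of all genes. No member was higher without overlap, where 5.71% of all genes were. Of the synthesis genes 14 had positive values with a median of 0.09, where the median over all genes was 0.002 and 50.7% were positive. As at 3 months, these 14 moved together and are not 14 separate observations. Scap was at 84.9, 83.3 and 84.9 CPM in OPA1+/+ and at 82.3, 80.0, 76.6 and 76.3 CPM in OPA1+/-, apart by a small margin (5.62% of all genes were lower without overlap), with a log2 fold change of -0.10 ± 0.05 (edgeR adjusted p = 0.520). Sqle was at 252, 274 and 307 CPM in OPA1+/+ and at 320.3, 301, 311 and 268 CPM in OPA1+/-, which overlapped. Of the genes listed around the pathway, Vldlr, a lipoprotein receptor, was the one that passed: it rose by 0.98 ± 0.16 (edgeR adjusted p = 0.0155), from 6.64 ± 1.27 to 13.1 ± 2.35 CPM (SD, n = 3 and 4). Its r with the synthesis score was -0.158. Vldlr also rose with age in OPA1+/- (0.83 ± 0.15, edgeR adjusted p = 0.0427), and the interaction did not pass (0.77 ± 0.23, edgeR adjusted p = 0.442). None of the other 6 tested lipoprotein genes, 12 fatty acid, 12 LXR and storage, 12 oxysterol, 8 SREBP-processing and 12 isoprenoid-using genes passed in either direction at 6 months, and none but Vldlr passed in any other comparison.

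Clock genes differed between genotypes at 6 months. By edgeR, 6 of 18 tested were higher in OPA1+/- (Ciart, Per3, Bhlhe41, Dbp, Nr1d2 and Tef), where 0.323% of all genes passed in either direction. Another 6 had negative values and none of them passed, among them Arntl, at 39.5, 51.4 and 54.3 CPM in OPA1+/+ and at 23.8, 19.8, 18.2 and 19.2 CPM in OPA1+/-. At 3 months Arntl was at 24.65, 21.05, 12.59 and 12.1 CPM in OPA1+/+ and at 16.07, 10.18, 26.63 and 22.0 CPM in OPA1+/-. For Arntl the OPA1+/+ libraries at 6 months thus lay above all others. The sum of 19 clock genes at 6 months was 2970 to 3163 CPM in OPA1+/+ and 3316 to 3564 CPM in OPA1+/-. At 3 months it was 2812 to 3223 CPM in OPA1+/+ and 2859 to 3254 CPM in OPA1+/-. None of the 18 tested passed by genotype at 3 months. With age, Per3 and Tef passed by edgeR as lower in OPA1+/+, where 0.0507% of all genes passed. No clock gene passed with age in OPA1+/-, where 0.0824% of all genes did. Covariates for the clock were built from clock genes, among them Ciart, Per3, Dbp, Nr1d2 and Tef, which were higher in OPA1+/- at 6 months. Clock and genotype therefore cannot be told apart in that fit. With them the value at 6 months was 0.48 ± 0.19 for Hsd17b7, -0.02 ± 0.49 for Abca1, -0.06 ± 0.20 for Abcg1 and -0.03 ± 0.20 for Mylip. At 3 months it was -0.38 ± 0.09 for Cyp39a1, 0.30 ± 0.11 for Hsd17b7, -0.355 ± 0.274 for Abca1, -0.12 ± 0.11 for Abcg1 and -0.26 ± 0.11 for Mylip. The time of day of dissection is not given here.

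**Figure D4:**
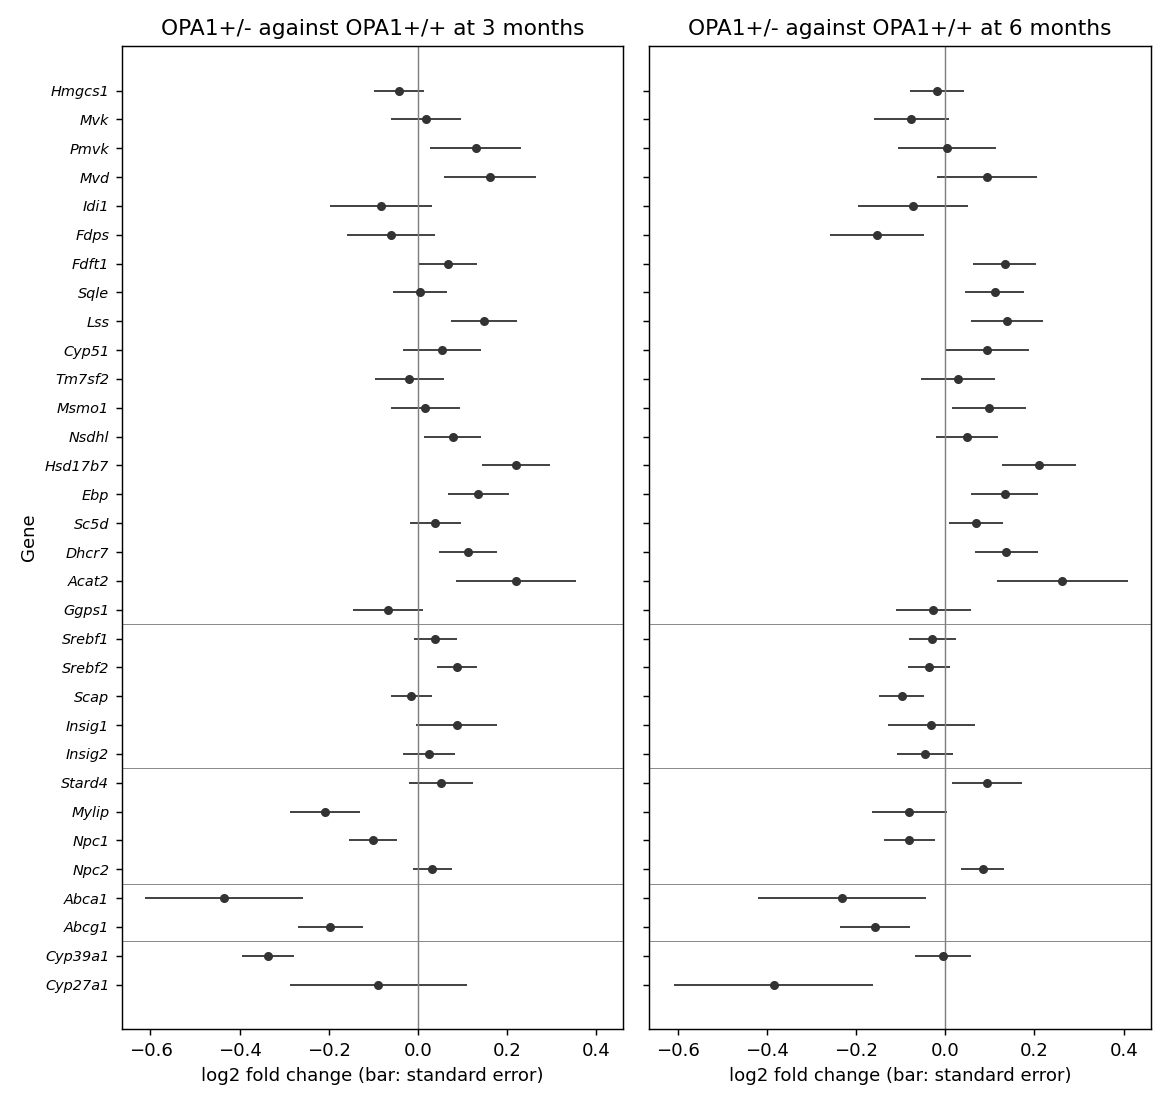
Log2 fold change of OPA1+/- against OPA1+/+ (horizontal axis; point, value; bar, standard error) for each of the 32 genes (vertical axis, ordered by role) at 3 months and at 6 months. Most synthesis genes lie just right of 0 at both ages, Abca1 and Abcg1 lie left of 0 (near 0 at 6 months without OPA1+/+ 6 months replicate 1), and Cyp39a1 lies at -0.34 at 3 months and near 0 at 6 months.

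Averaged over both ages, no member passed edgeR's test, with 0.793% of all genes called. At an unadjusted p under 0.05 there were 10 members, Hsd17b7, Ebp, Lss, Dhcr7 and Acat2 higher and Abca1, Abcg1, Mylip, Cyp39a1 and Npc1, the lysosomal cholesterol exporter, lower in OPA1+/-, where 12.4% of all genes had such a p. The values were 0.21 ± 0.06 for Hsd17b7 (edgeR adjusted p = 0.0755), -0.17 ± 0.04 for Cyp39a1 (edgeR adjusted p = 0.0647), -0.18 ± 0.05 for Abcg1 (edgeR adjusted p = 0.142) and -0.33 ± 0.13 for Abca1 (edgeR adjusted p = 0.302), which was -0.22 ± 0.13 without the 2 libraries with retina transcripts. DESeq2 called Hsd17b7 and Cyp39a1, where it called 1.99% of all genes, and limma voom called Cyp39a1, where it called 1.55%. With no filter on low counts edgeR called the same pair as DESeq2, among 0.808% of genes. The members share libraries and moved together, so the 10 are not 10 separate observations.

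Age was compared within each genotype. In OPA1+/+ no member passed edgeR's test (0.0507% of all genes did), and 2 members, Srebf2 and Cyp39a1, had an unadjusted p under 0.05, against 10.2% of all genes. Srebf2 was at 436, 452, 459 and 448 CPM at 3 months and at 470.3, 489.5 and 528 CPM at 6 months in OPA1+/+, without overlap (4.44% of all genes were higher without overlap). Its log2 fold change was 0.15 ± 0.05 (edgeR adjusted p = 0.257). Clock genes also differed with age in OPA1+/+, as said above, and their part in this value was not tested. In OPA1+/- Srebf2 was at 458, 456, 502 and 490.4 CPM at 3 months and at 500.3, 485, 479 and 471 CPM at 6 months, which overlapped. No member was lower at 6 months without overlap, where 3.70% of all genes were. DESeq2 and limma voom called no member, where they called 0.742% and 0.12% of all genes.

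In OPA1+/- no member passed with age by edgeR (0.0824% of all genes did), and 4 members had an unadjusted p under 0.05 (9.05% of all genes had). These were Cyp27a1, Mylip, Sqle and Cyp39a1. Cyp27a1 was at 3.59, 6.89, 6.19 and 4.39 CPM at 3 months and at 3.46, 4.23, 4.02 and 3.36 CPM at 6 months, from 43 to 91 counts a library over all 15. The groups overlapped, with 2 libraries at 3 months well above the rest, and the log2 fold change was -0.47 ± 0.21 (edgeR adjusted p = 0.515). Abca1 was the one member higher at 6 months without overlap, where 2.90% of all genes were, and none was lower, where 3.14% were. DESeq2 (0.444% of all genes) and limma voom (0.203%) called no member.

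Averaged over genotypes, no member passed by edgeR (0.412% of all genes did) and 4 had an unadjusted p under 0.05 (11.9% of all genes). DESeq2 (1.53% of all genes) and limma voom (0.761%) called no member. Cyp51 had 0.15 ± 0.06 (edgeR adjusted p = 0.364), Cyp27a1 -0.32 ± 0.15, Ebp at -0.11 ± 0.05 and Srebf2 at 0.08 ± 0.03. For the interaction of genotype and age edgeR called no member and 0.0% of all genes, and Cyp39a1 alone had an unadjusted p under 0.05 (6.91% of all genes). DESeq2 (0.133% of all genes) and limma voom (0.0%) called no member there.

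Insig1, Srebf1 and Sqle are known targets of the SREBP proteins. Insig1 was at 204, 200.5, 206 and 211 CPM in OPA1+/+ and at 238, 210.3, 222 and 202 CPM in OPA1+/- at 3 months. At 6 months it was at 185, 193 and 252 CPM against 230.0, 215, 193 and 184 CPM. The groups overlapped at both ages, and the highest OPA1+/+ library at 6 months, replicate 3, was also the one with the highest score of its group. Srebf1 ran from 167 to 192 CPM over the 15 libraries and Sqle from 252 to 320.3 CPM. Their log2 fold changes with genotype were between -0.03 and 0.11 at both ages, and none passed.

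**Figure D5:**
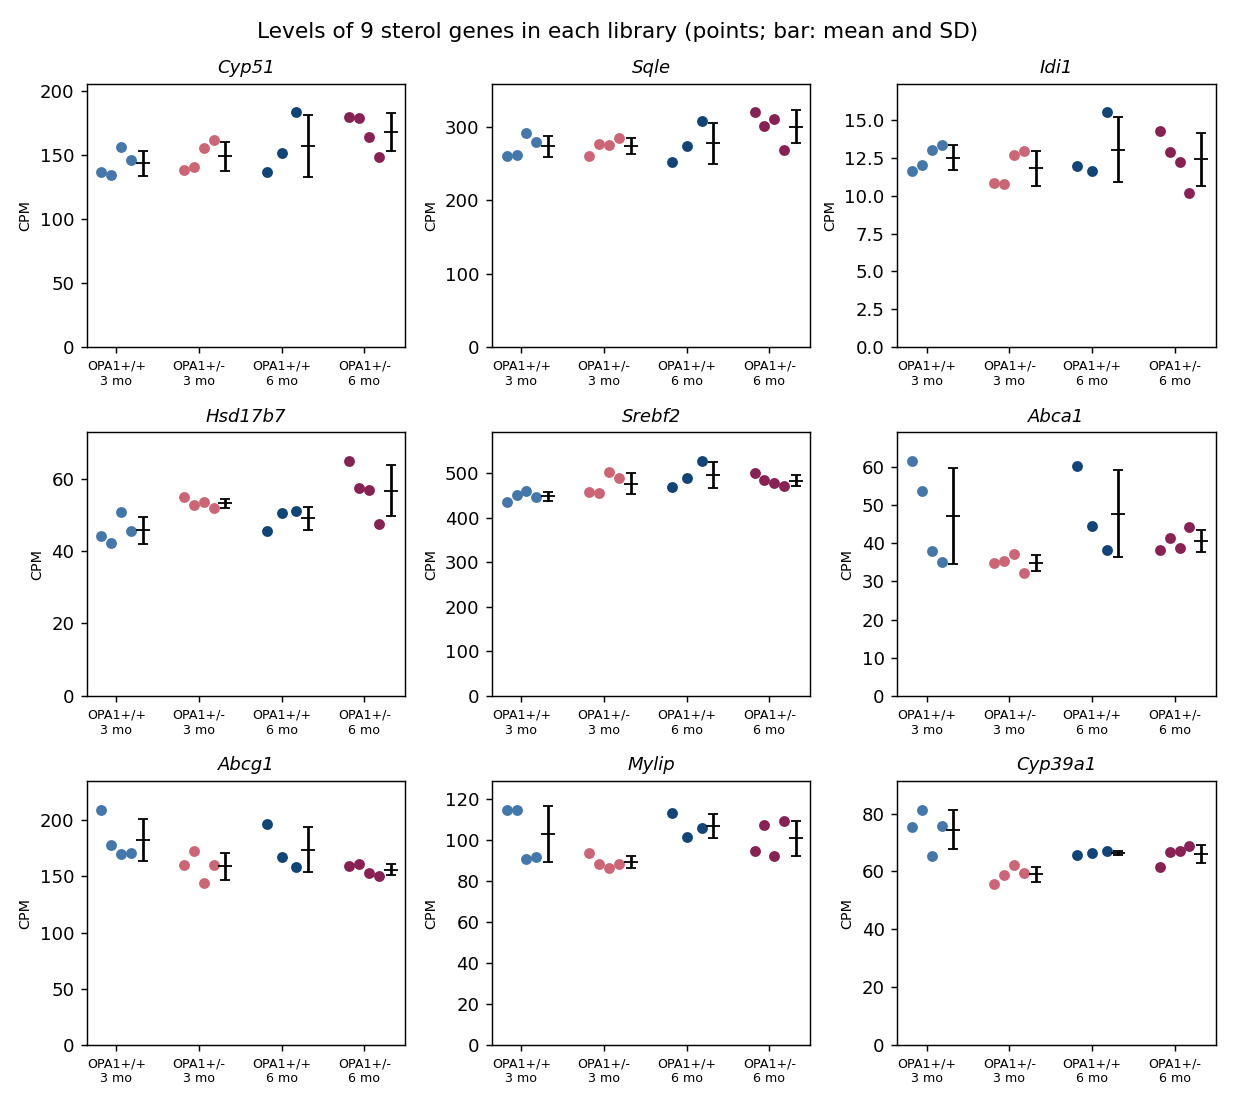
CPM (vertical axes, starting at 0) of 9 genes in each library (points, coloured by group) with the group mean and SD beside them (bars). Cyp51, Sqle and Idi1 overlap between groups, Abca1 is high in 3 OPA1+/+ libraries, and the 4 OPA1+/- libraries at 3 months lie below OPA1+/+ for Cyp39a1.

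In the coordinates of the count files, read as GRCm39, Cyp51 lies at chr5:4131145-4154746 on the minus strand, Sqle at chr15:59186926-59203041 on the plus strand, Hsd17b7 at chr1:169777104-169796810 on the minus strand, Srebf2 at chr15:82031382-82089580 on the plus strand, Abca1 at chr4:53030787-53159895 on the minus strand, Mylip at chr13:45543218-45565498 on the plus strand and Cyp39a1 at chr17:43978316-44062322 on the plus strand. Counts are over all annotated exons of a gene. By annotation, 6 members overlap another gene on their own strand: Fdps, Tm7sf2, Srebf1, Srebf2, Abcg1 and Cyp39a1. On the opposite strand 10 members overlap a gene, among them Cyp51, whose reads the strand-specific counting keeps apart.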

How the data were processed

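The authors deposited whole-number read counts per gene, 1 file per library. Per the file headers they counted with featureCounts 2.0.1 on exons, by gene identifier, with strand setting 2 and GENCODE mouse release 28. The submitters' processing notes name mm10 and DESeq2, while release 28 is on GRCm39. Reads were aligned with a tool not given in the sources used here. Per the labels' protocols, RNA was depleted of ribosomal RNA and sequenced as single reads of 75 bases from a directional kit.

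The members and lists were chosen with earlier results of these data known. All 15 libraries were fitted in 1 edgeR 4.0.16 quasi-likelihood model (R 4.3.3, TMM, filterByExpr, 11 residual degrees of freedom), with Benjamini-Hochberg adjustment over 15770 genes and a threshold of 0.05. CPM is TMM-adjusted, and log2 CPM used a prior count of 2. The standard error of a log2 fold change is its size over the root of F. The detection limit covers counting error alone, while standard errors and SDs include the spread between libraries. Members described library by library were the 3 with the smallest p per contrast, Insig1, Srebf1, Srebf2, Sqle and, chosen after its values were seen, Abca1. The 10 genes outside the set are those with the highest r, 9 of which are named. Symbols matched 52081 of 55357 identifiers. Alternatives were DESeq2 1.42.0, limma 3.58.1 voom, other filters and scaling, covariates for clock genes, a replicate block, and each library left out. The procedure was tested on simulated counts, with imposed changes larger than any value of the members, so that test does not cover changes of their size. Replicates of a group differed beyond counting error in all 21 pairs (chi-square per degree of freedom 3.27 to 10.1).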

Additional observations from a re-analysis of the deposited data

Results flagged for a closer look

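In 102 groups of 4 libraries, 1 level stood far from the other 3, where chance flags about 1 group in 20. Sc5d was at 238.8 CPM in OPA1+/- at 6 months, replicate 2, against 228.9 to 229.4 CPM in the other 3 libraries of that group. The gap was 0.951 of the group's range, above the critical value of Dixon's test, in a group whose whole range was small.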

How the results depend on the processing

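The count of members past the threshold at 3 months was 0 and became 1 (Cyp39a1) with no filter on low counts, limma voom and DESeq2, and 0 to 1 with a library left out (1 without OPA1+/+ 3 months replicate 3 or 4 or OPA1+/+ 6 months replicate 1). Averaged over ages it became 2 with no filter and DESeq2, 1 with limma voom, and 0 to 2 with a library left out (2 without OPA1+/+ 3 months replicate 3 and 1 without OPA1+/- 6 months replicate 4). The median r of synthesis pairs was 0.471 with group means kept and 0.504 to 0.606 with a library left out. Same-numbered libraries did not deviate together (median r 0.001 over 21 pairs, 0.003 over the 63 others), and with the replicate block 0 members passed in every comparison and the median r was 0.569. Of 1061 values of single members under alternatives, 50 changed sign, 0 of them called in either fit, and the cause was not tested. The clock covariates hold genes that were higher in OPA1+/- at 6 months, as said above. With clock covariates Insig1 had -0.192 (age in OPA1+/+), 0.101 (6 months) and 0.088 (interaction), Scap 0.078 and 0.059 (6 months, interaction), Sqle -0.070 and -0.023 (age in OPA1+/+, 3 months), Srebf1 0.032 and Srebf2 0.030 (6 months). Sqle at 3 months had -0.002 with DESeq2 or its size factors, -0.003 with a mean of at least 1 CPM, -0.004 with 2 groups alone and -0.021 without the retina libraries, an alternative chosen after seeing the data. Averaged over ages, Srebf1 had -0.0 with the 1 CPM filter, and without the retina libraries Srebf1 had -0.019 and Srebf2 -0.003. With a library left out, Insig1 ran from -0.115 to 0.118 (6 months), -0.014 to 0.099 (averaged), -0.124 to 0.116 (age in OPA1+/+), -0.104 to 0.015 (age averaged) and -0.202 to 0.039 (interaction), Sqle from -0.021 to 0.027 (3 months) and -0.057 to 0.089 (age in OPA1+/+), Srebf1 from -0.015 to 0.017 (averaged) and -0.019 to 0.049 (age in OPA1+/-), and Srebf2 from -0.073 to 0.008 (6 months) and -0.0 to 0.049 (age in OPA1+/-). A fit of 2 groups alone gives no averaged or interaction value. Depth bears most on Ebp, Npc2 and Scap, whose spread was 1.06, 1.10 and 1.25 times that of counting alone. Under all alternatives Abca1 ran from -0.561 to -0.286 at 3 months and from -0.371 to -0.016 at 6 months, and Abcg1 from -0.243 to -0.116 and from -0.224 to -0.057.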
